A study of Gallus gallus with 77 samples.

Results

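The numbered zinc finger genes are the probes on this transcription factor (TF) array whose gene name begins with ZNF, ZFP, ZFH, ZFX, ZFY or ZF5, apart from names that end in mm and a digit. The rule found 171 of the 1507 genes on the array, or 11.3%, and it used the names only. Each of the 171 had 2 spots, a total of 342. Cultured sensory epithelia (SE) of the cochlea of post-hatch White Leghorn chicks (Gallus gallus) were cut along straight lines with a laser microbeam. The recovery lasted 30 min in the shortest case and 3 hrs in the longest, with 1 hr and 2 hrs between. The control cultures came from the same source and had the same recovery time, but received no wound. Every biological sample pooled several wounded cultures, or as many control cultures, and each time point had 2 such samples. The RNA of both was amplified, labelled with Cy3 and Cy5 and hybridised together, with repeats and dye switches, to 25, 17, 15 and 20 arrays in order of recovery time. Of the 77 arrays 39 had Cy5-labelled laser RNA and 38 had Cy3-labelled laser RNA. The cultures limit what the values stand for, because isolated SE pieces were grown on fibronectin before the wounds and a wound touches part of a culture, while RNA was taken from the whole well. In such bulk RNA, fewer cells of a type and less RNA per cell cannot be told apart.

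Most of these genes encode proteins with repeated C2H2 zinc fingers, each of which folds around a zinc ion and contacts a few bases of DNA. Many carry a KRAB domain, which recruits the corepressor TRIM28 and, through it, the histone methyltransferase SETDB1 and HP1 proteins, so that the bound chromatin is silenced. Others carry a SCAN domain, through which the proteins pair with each other, or a BTB/POZ domain, which recruits other corepressors. The KRAB family has expanded separately in some vertebrate lineages. Some of the numbered names belong to unrelated zinc-binding proteins, such as RING ubiquitin ligases, splicing factors and RNA-binding proteins. The probes are 50 mers designed to human coding sequence and hybridised with chick cDNA. The sequences of the probes were not used here, so none is printed. Of the 171 names, 48 matched the symbol or a synonym of a chicken gene in the RefSeq annotation of assembly GRCg7b and 123 did not. A name without a match says only that no chicken entry carries it.

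Signal came first, because a ratio of a dim probe carries little information. A gene was taken as detected at a time point where the mean of both channels reached 1000 scanner units on at least 80% of the arrays. At 30 min 22 of the 171 zinc finger genes (12.9%) were detected. There were 140 (81.9%) for 1 hr and 133 (77.8%) for 2 hrs, and 68 (39.8%) for 3 hrs. Over all 1507 genes the shares were 32.1%, 92.2%, 85.5% and 57.3%, so that the zinc finger share was the lower one at each of the 4 time points. This order of time points followed the arrays as a whole, since the median spot signal of the median array was 1222.0, 2859.2, 1951.8 and 1384.6 units in the same order. The part of array brightness in the number of detected genes was not tested.

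The array also held control oligos without a homolog in human or chicken. The sources used here do not say which names these are, and the 11 names that begin with CE or MT were taken as such. The zinc finger probes had a median signal of 1295, 2204, 1919 and 1195 in order of recovery time, against 1028, 2559, 2094 and 1197 for these control oligos. At 30 min 131 of the 171 zinc finger probes (76.6%) were above the control median. The number above it was 63 (36.8%) for 1 hr, 70 (40.9%) for 2 hrs and 85 (49.7%) for 3 hrs, and over all genes the shares were 88.7%, 60.5%, 52.9% and 70%. The control oligos themselves reached the detection level in 1, 11, 11 and 5 of 11 cases. The detection level therefore did not separate the probes from the control oligos at 1 hr and 2 hrs. Above the 95th percentile of the control oligo spots of the same array, on 80% of arrays, there were 3, 2, 6 and 3 zinc finger genes, from the shortest recovery to the longest. These were 1.75%, 1.17%, 3.51% and 1.75% of the 171, below the 6.97%, 8.63%, 7.37% and 6.83% of all genes.

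**Figure D1:**
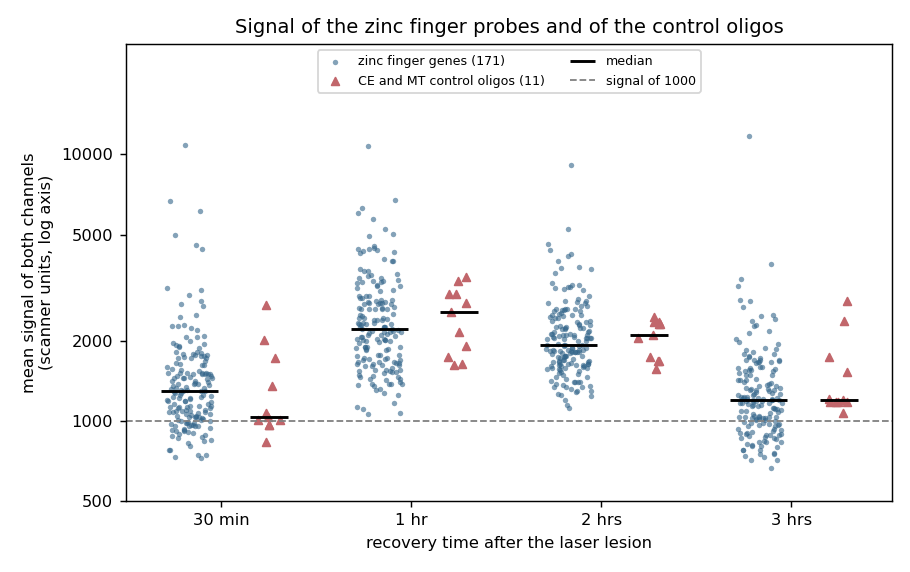
Mean signal of both channels (scanner units, log axis) of the 171 zinc finger probes (points) and the 11 CE and MT control oligos (triangles) at the 4 recovery times, with the median of each as a bar and the level of 1000 as a dashed line. The zinc finger median lay at 1295, 2204, 1919 and 1195, and the control median at 1028, 2559, 2094 and 1197.

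Detection at all 4 time points was reached by 21 zinc finger genes, while 47 were detected at 3 time points, 60 at 2, 18 at 1 and 25 at none. ZNF6 (now ZNF711, a relative of ZFX and ZFY on the human X chromosome) and ZNF174 (a SCAN-domain repressor) also exceeded the 95th percentile of the control oligos at every time point. ZNF6 had a mean signal of 10894 ± 9164, 10768 ± 4665, 9119 ± 3592 and 11752 ± 6089 in order of recovery time (SD over 25, 17, 15 and 20 arrays). ZNF174 had 6679 ± 9727, 6770 ± 2926, 4616 ± 2057 and 3217 ± 1345. The spread between arrays was as large as the mean or larger for ZNF174 at 30 min, and smaller than the mean for both genes at the other times. The other genes detected at 4 time points included ZFP91 (a ubiquitin ligase of the noncanonical NFKappaB pathway), ZNF207 (a spindle-assembly protein also known as BuGZ), ZNF216 (an A20-type ubiquitin-binding protein), ZNF75A, ZNF76, ZNF160, ZNF169 and ZNF187. At the dim end, ZFHX1B (ZEB2, a repressor that drives epithelial-mesenchymal transition), ZNF148 (ZBP-89), ZNF151 (MIZ1, a partner of MYC), ZNF202 (a SCAN and KRAB repressor) and ZNF217 (a component of CoREST repressor complexes) were detected at 0 time points. ZNF148 had 900, 1107, 1244 and 711 units.

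Relative to the median spot of the same array, the level of 1 probe could be followed from replicate to replicate. Across the 8 biological replicates the range of a zinc finger probe had a median of 0.81 on the log2 scale, and 44 of the 171 ranged over more than 1. ZNF75A, a KRAB zinc finger gene, had the widest range. Its level was 1.03 and 3.23 in replicates 1 and 2 of 30 min and 1.07 and 2.29 in those of 1 hr (log2 over the array median). In the replicates of 2 hrs it was 1.64 and 1.55, and in those of 3 hrs 1.63 and 1.46. Replicate 2 was therefore far above replicate 1 at both earlier times, while the replicates were close at both later ones. ZNF6 lay between 2.59 and 3.18 in the 6 replicates of the first 3 time points, and had 3.69 and 4.33 in those of 3 hrs. Both replicates at 3 hrs were above every replicate of the other times, a description of 1 probe that no test was applied to.

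The log2 ratio of laser over control was then estimated for every gene. It is positive where the signal of the laser RNA was higher after normalisation. With 1 value for each biological replicate (the average of both dye orientations), the 171 ratios spanned −0.25 to 0.29 for 30 min, −0.22 to 0.18 for 1 hr, −0.38 to 0.29 for 2 hrs and −0.21 to 0.25 for 3 hrs. Their medians were −0.018, −0.026, −0.024 and 0.008, against −0.0043, −0.0096, −0.0142 and −0.0003 over all 1504 genes tested. All 171 zinc finger genes were among the genes tested, since each reached a mean of 1000 units in some time point. Above 0 lay 74, 62, 71 and 94 of the 171 (43.3%, 36.3%, 41.5% and 55%), while over all genes the shares were 48.3%, 45.1%, 45.1% and 49.7%. At 2 hrs the median lay on opposite sides of 0 in replicate 1 (−0.08) and replicate 2 (0.02). By orientation it was below 0 in 3 of 4 values and above 0 in the fourth at 1 hr, and at 30 min and 2 hrs it was below 0 with the laser RNA in Cy3 and above 0 in Cy5 in both replicates.

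A gene was called where limma gave an unadjusted p under 0.05 and the ratio was over 1.2-fold, the p and fold thresholds of the study. The study also required the same trend in a set share of its repeated hybridisations, a rule that was not applied here. All p-values rest on 2 biological replicates a time point, with the spread pooled over the 4 time points, and were adjusted over the 1504 genes. At 30 min 1 zinc finger gene was called, and it was higher in the laser samples (0.585% of 171, where 0.931% of all genes were called higher and 3.46% in either direction). At 1 hr 0 were called (0.332% of all genes). At 2 hrs 6 were called, 2 higher and 4 lower after the laser (3.51%, where 4.19% of all genes were called, 2.13% higher and 2.06% lower). At 3 hrs 0 were called (1.53% of all genes). In any of the 4 time points 7 zinc finger genes were called, or 4.09%, where 8.31% of all genes were. With plain background subtraction the share was above that of all genes at 1 hr (3.51% against 3.32%) and at 3 hrs (7.02% against 3.72%). Other settings gave a higher share than all genes at 2 hrs. Among them were limma on all arrays with the biological replicate as a random block (4.68% against 3.59%) and a mean over all arrays of a replicate (4.68% against 4.12%). In the main fit every adjusted p was over 0.05. The smallest adjusted p of a zinc finger gene in limma was 0.267, 0.999, 0.209 and 0.988 in order of recovery time. At an unadjusted p under 0.05 without the fold threshold there were 8, 2, 24 and 4 (8.91%, 2.66%, 10.9% and 3.79% of all genes), and the 24 at 2 hrs were 14% of the family. The methods' t-test over all arrays of a time point, adjusted over all genes, also gave 0 zinc finger genes at each time. limma on all arrays with the biological replicate as a random block gave 2 at 30 min, of 29 among all genes, and 0 at the other times, where all genes gave 0, 1 and 3. The consensus correlation of that block was −0.0117, so the arrays of a pooled sample counted nearly as independent values.

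The error sets the scale for these ratios. The standard error of a zinc finger ratio had a median of 0.08 (from 0.07 to 0.14). The replicates of a time point differed by 0.10, 0.09, 0.15 and 0.11 in the median zinc finger gene, and the duplicate spots of a gene on 1 array by 0.24, 0.17, 0.24 and 0.21. Across the 171 genes, replicate 1 and replicate 2 correlated with r = 0.28, −0.12, 0.11 and −0.02. These are correlations across genes, which share arrays and are not independent. Both replicates had the same sign in 111, 90, 93 and 87 genes, shares of 64.9%, 52.6%, 54.4% and 50.9% against 56.4%, 51.7%, 52.3% and 50.4% of all genes.

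**Figure D2:**
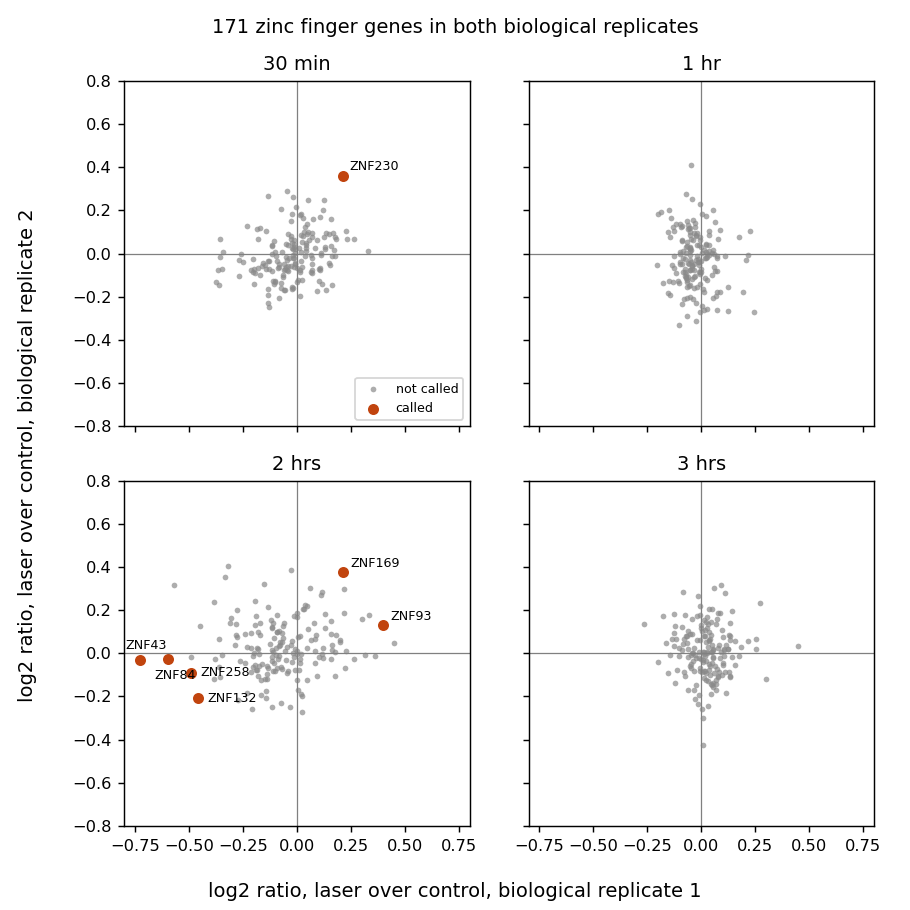
Log2 ratio, laser over control, of the 171 zinc finger genes in biological replicate 1 (x axis) and replicate 2 (y axis), 1 panel for each recovery time, with called genes in colour. The clouds are centred near 0 with r = 0.28, −0.12, 0.11 and −0.02, and of the called genes ZNF230, ZNF132, ZNF169 and ZNF93 lie off both axes while ZNF43, ZNF84 and ZNF258 are low in replicate 1 and near 0 in replicate 2.

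At 30 min the called gene was ZNF230, a KRAB zinc finger gene of the cluster around ZNF45 on human chromosome 19. Its log2 ratio was 0.11 and 0.44 with the laser RNA in Cy3 (replicates 1 and 2), and 0.31 and 0.29 in Cy5. All 4 values were above 0. Its mean was 0.29 ± 0.08 (SE, n = 2 replicates at 0.21 and 0.36), or 1.22-fold. In limma it had p = 0.00327 and an adjusted p of 0.267. At the later times the same gene gave −0.09, −0.08 and 0.05, none of them past the thresholds, and its Cy3 and Cy5 orientations lay on opposite sides of 0 in both replicates at 1 hr and at 2 hrs. ZNF230 was below the detection level at 30 min, where 48% of the arrays reached 1000 units.

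At 2 hrs ZNF169, a KRAB zinc finger gene, was higher in the laser samples in every orientation. It gave 0.34 and 0.39 with Cy3-labelled laser RNA, and 0.09 and 0.37 in Cy5, for a mean of 0.29 ± 0.08 (SE, n = 2, replicates 0.21 and 0.38). Its limma p was 0.0036, with an adjusted p of 0.209. The probe was detected at every time point, with 3776 units at 2 hrs. Its other ratios were −0.10 for 30 min, 0.06 for 1 hr and −0.0002 for 3 hrs.

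ZNF132, another KRAB zinc finger gene, was lower in the laser samples at 2 hrs. It gave −0.86 and −0.30 with the laser RNA in Cy3, and −0.06 and −0.12 in Cy5. The mean was −0.33 ± 0.09 (SE, n = 2, replicates −0.46 and −0.21). The limma p, the smallest of the family at 2 hrs, was 0.00308 and its adjusted p 0.209. Its orientations shared a sign, but replicate 1 in Cy3 was far lower than the rest. At 30 min, 1 hr and 3 hrs the ratio of ZNF132 was 0.01, −0.04 and 0.01. The probe was dim at 2 hrs, with a mean signal of 2301 units in Cy5 and 1398 in Cy3. The mean of both channels lay below the control oligo median of 2094.

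The other 4 calls at 2 hrs did not have the same sign in all 4 orientation values. In ZNF93, ZNF258 and ZNF84 the Cy3 and Cy5 means lay on opposite sides of 0. In ZNF43 both means were below 0, and only replicate 2 in Cy3 was above it. ZNF93, a KRAB protein that silences LINE-1 elements in human cells, gave 0.86 and 0.29 in Cy3 but −0.07 and −0.03 in Cy5, with a mean of 0.26 ± 0.09 (SE; p = 0.00956, adjusted p = 0.266). ZNF258 (ZMYM6, of the MYM-type zinc finger group) gave −1.02 and −0.19 in Cy3 but 0.04 and 0.01 in Cy5, with a mean of −0.29 ± 0.09 (p = 0.00793, adjusted p = 0.243). In ZNF84, a KRAB gene, the values were −1.23 and −0.35 in Cy3 against 0.04 and 0.30 in Cy5, and the mean was −0.31 ± 0.11 (p = 0.0145, adjusted p = 0.281). ZNF43, a KRAB gene related to ZNF91, had −0.98 and 0.40 in Cy3 and −0.48 and −0.46 in Cy5, and a mean of −0.38 ± 0.13 (p = 0.0131, adjusted p = 0.281). In these 4 genes replicate 1 with the laser RNA in Cy3 held the most extreme value. At 2 hrs ZNF258 had 1964 units in Cy5 and 1103 in Cy3, and ZNF84 had 2218 and 1177. Their means of both channels lay below the control oligo median of 2094, and that of ZNF258 also below the lowest control oligo (1566). ZNF93 (3206 and 3250) and ZNF43 (4081 and 3433) were above the control median. Of the 15 arrays at 2 hrs, the laser ratio was above 0 on 9 for ZNF93, 7 for ZNF258, 7 for ZNF84 and 5 for ZNF43. It was above 0 on 11 for ZNF169 and 3 for ZNF132, and on 20 of 25 arrays at 30 min for ZNF230. For ZNF43, ZNF84 and ZNF258 replicate 2 was −0.03, −0.03 and −0.09, so that the call rested on replicate 1. Each call at 30 min and 2 hrs was lost when 1 replicate was left out. Without replicate 1 of 2 hrs ZNF132 gave −0.21 and ZNF93 0.13, without replicate 2 of 2 hrs ZNF169 gave 0.21, and without replicate 2 of 30 min ZNF230 gave 0.21.

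A same sign in both replicates and both orientations was found in 17 zinc finger genes for 30 min (8 higher, 9 lower), 7 for 1 hr (1 higher, 6 lower), 12 for 2 hrs (5 higher, 7 lower) and 14 for 3 hrs (11 higher, 3 lower). As shares of the 171 these were 9.94%, 4.09%, 7.02% and 8.19%, next to 8.38%, 3.66%, 7.98% and 7.51% of all genes. Higher in all 4 values were 4.39%, 1.8%, 4.19% and 4.39% of all genes, and lower 3.99%, 1.86%, 3.79% and 3.12%. Among called genes the condition was met by ZNF230 at 30 min (1.46% of all genes were both) and by ZNF132 and ZNF169 at 2 hrs (1.73%), and by none at 1 hr (0%) or 3 hrs (0.399%). It was met at 1 time point by 36 genes, at 2 time points by 7 and at 3 or 4 time points by 0. The 7 were ZFP93, ZFX, ZNF174, ZNF282, ZNF297, ZNF41 and ZNF9, of which ZNF41 was above 0 at both times and ZNF282 below 0 at both, and the other 5 changed side. ZNF9 (CNBP, a nucleic acid-binding protein with CCHC fingers) had −0.11 at 30 min and 0.17 at 1 hr.

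**Figure D3:**
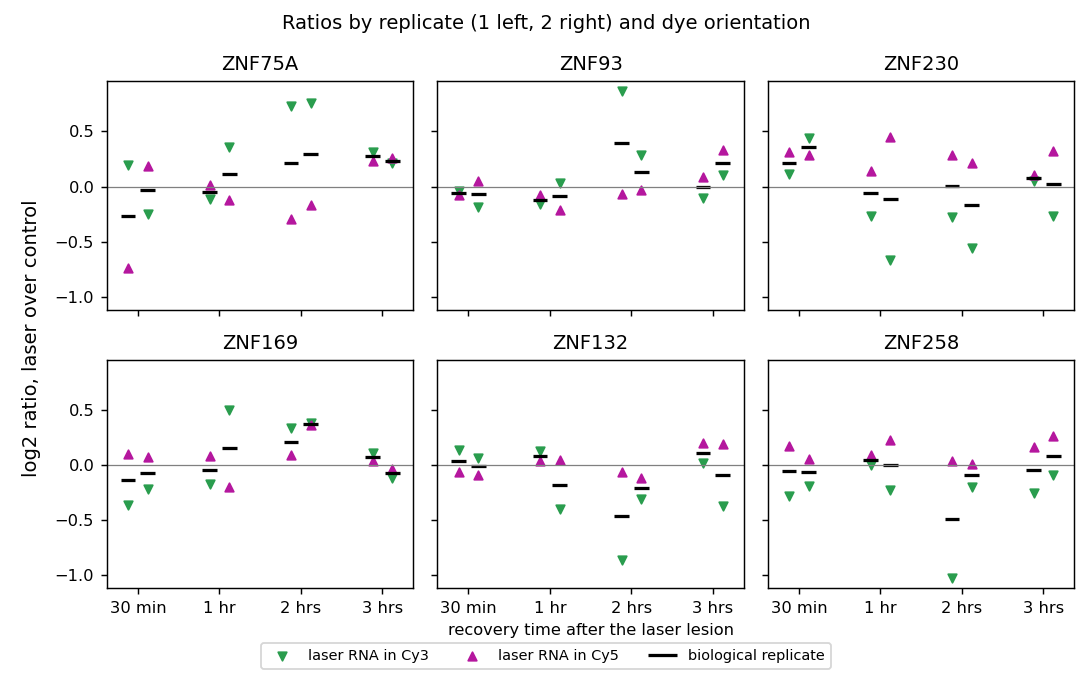
Log2 ratio, laser over control, of 6 zinc finger genes at the 4 recovery times, by dye orientation (downward triangles with the laser RNA in Cy3, upward ones in Cy5) for replicate 1 (left of each pair) and replicate 2 (right), with the value of each biological replicate as a bar. ZNF75A is above 0 in all 4 orientation values at 3 hrs but not at 2 hrs, where Cy3 gave 0.73 and 0.76 and Cy5 −0.29 and −0.17, and ZNF258 at 2 hrs is far below 0 in 1 value, −1.02.

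The time course of single genes was also tested as the mean of 2 hrs and 3 hrs minus the mean of 30 min and 1 hr. This contrast called 2 zinc finger genes, both higher at the later times (1.17% of 171, where 1.46% of all genes were called and 0.931% called higher), and 4 had an unadjusted p under 0.05 without the fold threshold (6.18% of all genes). The median difference over the 171 genes was 0.02 (from −0.22 to 0.31) and 96 of them (56.1%) were above 0, where the median over all genes was 0.0041 and 51.5% were above 0. ZNF75A gave −0.27 and −0.03 in the replicates of 30 min and −0.05 and 0.12 in those of 1 hr, then 0.22 and 0.30 for 2 hrs and 0.27 and 0.23 for 3 hrs. The 4 later replicates, from 0.22 to 0.30, did not overlap the 4 earlier ones, from −0.27 to 0.12. The difference was 0.31 ± 0.08 (SE, 4 replicates each; p = 0.00238, adjusted p = 0.71). It was 0.46 where Cy3 carried the laser RNA and 0.17 where Cy5 did. At 3 hrs all 4 orientation values of ZNF75A lay between 0.21 and 0.31, and the normalised laser ratio was above 0 on 18 of 20 arrays. At 2 hrs that was so on only 9 of 15 arrays, and the Cy5 orientation was below 0 in both replicates. ZNF75A at 2 hrs (0.26) and at 3 hrs (0.25) passed the p threshold and stayed just under 1.2-fold. Without replicate 1 of 30 min the difference was 0.25, under 1.2-fold as well.

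ZNF93 gave −0.06 and −0.07 in the replicates of 30 min, −0.12 and −0.09 in those of 1 hr, 0.40 and 0.13 for 2 hrs and −0.0048 and 0.22 for 3 hrs. All 4 earlier replicates were below 0 and below the later ones. Such a separation was also seen in genes that were not called, such as ZNF143 and ZNF148. It was not counted over all genes. The later minus earlier difference was 0.27 ± 0.09 (SE; p = 0.00851, adjusted p = 0.723), with 0.38 in Cy3 and 0.16 in Cy5. It fell under 1.2-fold without replicate 1 of 1 hr (0.26), replicate 1 of 2 hrs (0.20) or replicate 2 of 3 hrs (0.21). The arrays carry a day in their headers, and days differ between the time points except that 1 hr and 2 hrs share 2 days. Within these, the ratio at 2 hrs minus that at 1 hr was 0.33 (6 and 8 arrays) and 0.16 (4 and 3 arrays) for ZNF75A, and 0.35 and 0.70 for ZNF93. For 30 min and 3 hrs, the header day and the time point cannot be told apart in this contrast. The lowest difference, −0.22 in ZNF43, did not pass (p = 0.118, adjusted p = 0.805 in limma).

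Grouped by protein type, the 7 genes called at a time point came from the ZNF45 cluster, the ZNF91 relatives, the MYM-type genes and the genes in no group. Over all genes 3.46%, 0.332%, 4.19% and 1.53% were called in order of recovery time, and 8.31% at any time. In groups this small a count of 0 calls is therefore no result about a protein type. Of the 9 BTB/POZ genes 0 were called at any time. Their median ratio was 0.02, −0.07, −0.13 and −0.03 in order of recovery time, against −0.0043, −0.0096, −0.0142 and −0.0003 over all genes. Above 0 were 2 of 9 at 1 hr, 2 hrs and 3 hrs (45.1%, 45.1% and 49.7% of all genes). The group includes ZNF145 (PLZF), ZNF151 and ZNF-kaiso, a reader of methylated DNA, and ZNF-kaiso at 2 hrs gave −0.35 and −0.0092 in the replicates. ZNF145 gave 0.03, −0.11, −0.03 and −0.02 over the time course and ZNF151 0.02, 0.01, −0.06 and −0.09, none past the thresholds. ZNF297, of the same group, gave 0.31 and 0.14 in Cy3 and 0.12 and 0.24 in Cy5 at 2 hrs (mean 0.20, p = 0.0168, adjusted p = 0.299), against the direction of the group median and under 1.2-fold. Of the 20 SCAN genes 0 were called, with medians of −0.02, −0.04, −0.05 and −0.01. ZNF187 (ZSCAN26) had 0.31 and 0.23 in Cy3 and 0.30 and 0.09 in Cy5 at 2 hrs, a mean of 0.23 ± 0.10 (SE, n = 2), under 1.2-fold. Its limma p was 0.0306 and its adjusted p 0.394.

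Among the 10 genes of the ZNF45 cluster ZNF230 was called at 30 min, and their median was −0.03, −0.03, −0.08 and 0.02 at the 4 time points. Among the 11 relatives of ZNF91, 1 was called higher (ZNF93) and 1 lower (ZNF43) at 2 hrs, with medians of −0.05, −0.03, −0.02 and 0.02. Such clustered KRAB genes are close copies of each other in human, and how far a probe for 1 of them takes up cDNA of another was not measured here. Of the 5 MYM-type genes ZNF258 was called lower at 2 hrs. The 8 RING and TRIM genes, among them ZNF144 (PCGF2, a Polycomb subunit), and the 10 genes with other zinc-binding folds, among them ZFP36 (tristetraprolin, which promotes decay of AU-rich mRNAs), ZNF162 (the splicing factor SF1) and ZNF220 (the acetyltransferase KAT6A), gave 0 calls at each time. ZNF144 gave 0.11, 0.05, 0.04 and −0.08 at the 4 time points, ZNF220 gave 0.08, −0.08, −0.05 and 0.03, and ZNF162 gave 0.04, −0.0043, −0.06 and −0.04. ZFP36 had 0.13 ± 0.10 at 2 hrs (SE, replicates 0.20 and 0.06; adjusted p = 0.644), with −0.04 and −0.13 in Cy3 and 0.44 and 0.26 in Cy5.

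ZFY and ZFX, paired activators encoded on the mammalian sex chromosomes, gave 0.26 and −0.02 at 2 hrs. ZFY reached p = 0.00565 with replicates of 0.33 and 0.18, but stayed just under 1.2-fold and had 0.67 and −0.11 in Cy3 and −0.01 and 0.47 in Cy5. Of the 2 Ikaros family genes, which act in lymphoid cells, ZNFN1A1 (IKZF1) gave 0.19 at 2 hrs with 0.11 and 0.27 in the replicates (p = 0.0411, adjusted p = 0.426), and ZNFN1A3 (IKZF3) gave −0.02. Of the 8 characterised C2H2 activators and repressors, 0 were called. ZNF143, which binds the promoters of small nuclear RNA genes, gave −0.12, −0.03, −0.02 and 0.05 over the time course, ZNF148 gave −0.07, −0.02, 0.01 and 0.06, ZNF217 gave −0.04, −0.12, −0.07 and 0.10, and ZNF161 (VEZF1, a regulator of endothelial cells) gave −0.25 at 30 min (p = 0.00975, adjusted p = 0.413), just under 1.2-fold. ZNF268, a KRAB gene, gave 0.04 at 2 hrs from replicates of −0.32 and 0.41, a spread far wider than its mean. At 3 hrs 7 of the 8 were above 0 (49.7% of all genes), with a median of 0.05. The 85 genes in none of these groups held 3 of the 6 calls at 2 hrs.

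The study clustered its genes over the laser time points and those after a neomycin injury, so partly on these samples. Its late-rising clusters peak at the last neomycin time point, and 61 of their zinc finger genes are on the array. This list is no independent evidence of a direction. The neomycin times are not among the present samples, so the late rise itself cannot be examined here. In the present ratios 0 of the 61 were called higher and 2 lower (ZNF84 and ZNF258) at 2 hrs. Of all genes 2.13% were called higher and 2.06% lower there. At the other times 0 of the 61 were called (3.46%, 0.332% and 1.53% of all genes). The median of the 61 was −0.03, −0.03, −0.01 and 0.01. The later minus earlier difference of the list had a median of 0.03, with 34 of 61 above 0 and 0 called. Over all genes the median was 0.0041, with 51.5% above 0 and 1.46% called.

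Outside the family, 9 corepressor genes through which KRAB proteins act were followed for comparison. TRIM28 gave 0.01, −0.06, −0.09 and 0.02 at the 4 time points and SETDB1 0.10, 0.07, 0.12 and −0.01. The chromatin remodeller CHD3 was called higher at 30 min (0.30 ± 0.09, SE, adjusted p = 0.319) and at 2 hrs (0.29 ± 0.09, adjusted p = 0.236), and the other 8 gave 0 calls. The 3 hair cell genes tested (ATOH1, POU4F3 and GFI1) were detected at 3, 3 and 2 time points and gave 0 calls. POU4F3, a transcription factor of hair cells, gave a later minus earlier difference of −0.26 ± 0.08 on the log2 scale (SE, limma, p = 0.00567, adjusted p = 0.71). The other hair cell genes gave 0.06 (ATOH1) and −0.08 (GFI1) in that contrast, so the 3 did not share a direction. The part of POU4F3 in the later minus earlier differences of ZNF75A and ZNF93 was not tested. The 7 genes of supporting and prosensory cells gave 1 call (PAX2, −0.31 at 2 hrs), and the 7 genes that mark muscle, leukocytes, red cells, neurons, glia and melanocytes gave 0 calls, although each was detected at 1 to 3 time points. As the control oligos also reached that level, these signals do not show that such cells were present. The same limit holds for the detection of the hair cell genes. At 1 hr and 2 hrs POU4F3 (2456 and 1917) and GFI1 (2167 and 1510) lay below the control oligo medians of 2559 and 2094. ATOH1 (3397 and 2502) lay above them.

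The dye difference was larger than the laser ratio in the median zinc finger gene. With the sign turned on arrays whose laser RNA was in Cy3, both orientations of a replicate should give the same ratio, yet across the 171 genes they correlated with r from −0.65 to −0.25 over the 8 replicates, and from −0.64 to −0.24 across all genes. The dye of the laser RNA was taken from the digit in each sample's title, which the image named in the scanner header matched on 77 of 77 arrays and by which the authors' own table is turned. At 30 min 101 of the 171 genes (59.1%) had Cy3 and Cy5 means of opposite sign, and so did 124 (72.5%) for 1 hr, 127 (74.3%) for 2 hrs and 124 (72.5%) for 3 hrs. Over all genes the shares were 64%, 78.1%, 71.8% and 73.3%. The orientations of a replicate differed by 0.25, 0.24, 0.34 and 0.21 in the median zinc finger gene.

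**Figure D4:**
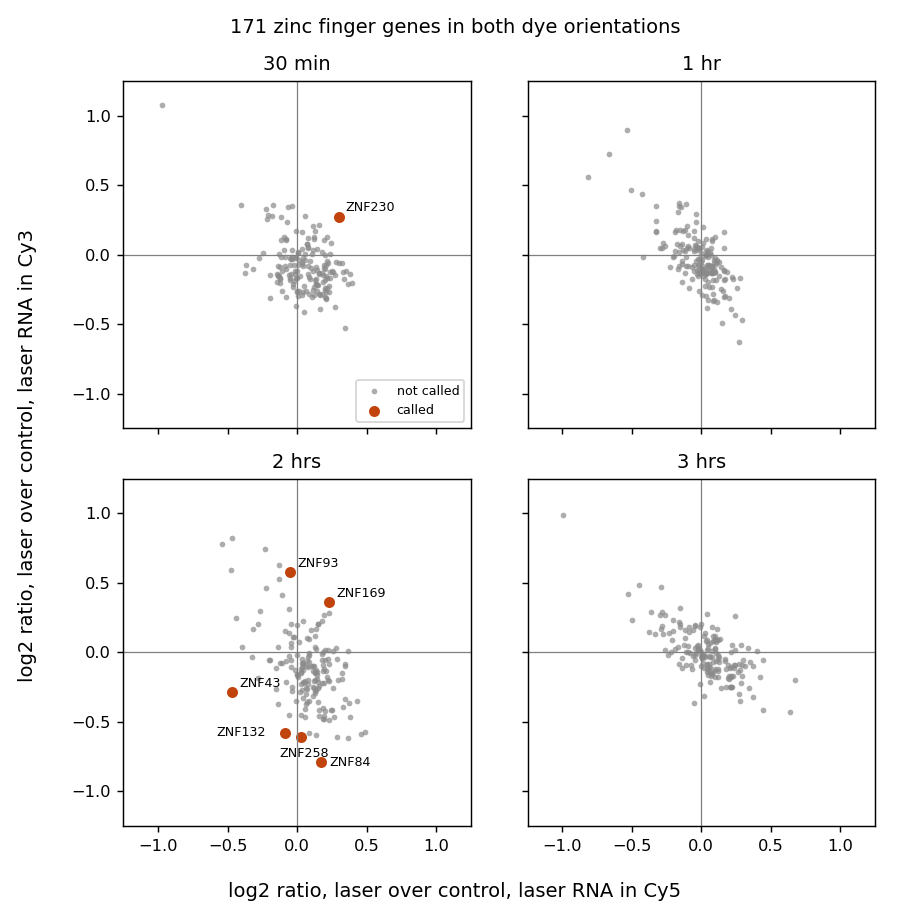
Log2 ratio, laser over control, of the 171 zinc finger genes where Cy5 carried the laser RNA (x axis) and where Cy3 did (y axis), means of both replicates, 1 panel for each recovery time, with called genes in colour. The clouds run from upper left to lower right, and 101, 124, 127 and 124 genes lie at the upper left and lower right, where the orientations have opposite signs.

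Fitted as a term of its own, the difference between the dyes (Cy5 over Cy3, free of the laser effect) had an adjusted p under 0.05 in 39 of the 171 genes, or 22.8%, where 32.9% of all genes passed. Of the 39, 29 were higher in Cy5 and 10 in Cy3 after normalisation (15.6% and 17.3% of all genes). The size of this difference had a median of 0.09 over the zinc finger genes, while the laser ratio over the 4 time points had a median size of 0.06. Over all genes the medians were 0.11 and 0.06.

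ZNF76, a relative of ZNF143 that acts on snRNA promoters, had the largest dye difference of the family. Its Cy5 over Cy3 difference was −0.85 ± 0.08 (SE, 8 of 8 replicates below 0, from −1.13 to −0.30, limma adjusted p = 7.81e-07). After normalisation Cy3 was the higher channel on 75 of 77 arrays. At 30 min its laser ratio was 1.13 and 1.03 with the laser RNA in Cy3 and −0.91 and −1.04 in Cy5, while the mean of both orientations was 0.05. An orientation taken alone would have given a change of about the same size in either direction. ZNF160, a KRAB gene, had −0.52 ± 0.06 (8 of 8 replicates, adjusted p = 1.34e-05) and ZFP95 (ZKSCAN5, with a SCAN and a KRAB domain) −0.43 ± 0.07 (8 of 8, adjusted p = 0.000159). After normalisation ZNF6 was higher in Cy5 by 0.40 ± 0.06 in 8 of 8 replicates (limma adjusted p = 0.000149). ZNF200 was higher in Cy3 by a difference of −0.35 ± 0.07 in 7 of 8 (limma adjusted p = 0.00192), unlike ZNF6. Their laser ratios, averaged over both orientations, ranged from −0.09 to 0.11 in ZNF6 and from −0.21 to 0.18 in ZNF200.

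**Figure D5:**
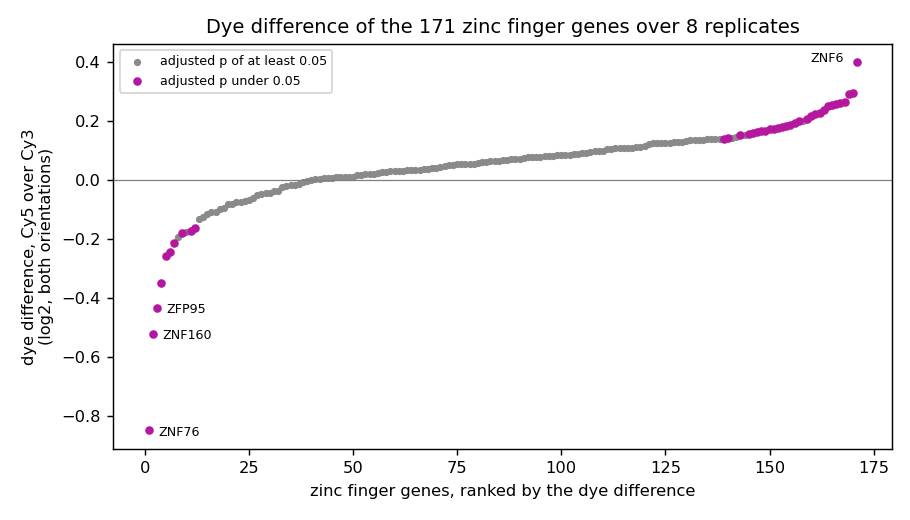
Dye difference (Cy5 over Cy3, log2, free of the laser effect) of the 171 zinc finger genes over 8 biological replicates, ranked from the lowest to the highest, with genes at an adjusted p under 0.05 in colour. ZNF76 (−0.85), ZNF160 (−0.52) and ZFP95 (−0.43) lie at the low end and ZNF6 (0.40) at the high end, and 39 genes pass.

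The called ratios were also read without turning any array, which gives Cy5 over Cy3 and cancels the laser effect. In this reading 10, 12, 34 and 16 zinc finger genes passed the same thresholds, more than the 1, 0, 6 and 0 of the laser ratio. They were 5.85%, 7.02%, 19.9% and 9.36% of the family, below the 13.2%, 17.4%, 24.5% and 17.6% of all genes. ZNF75A at 2 hrs was −0.49 in that reading and 0.26 as laser over control, and ZNF84 was 0.48 against −0.31. ZNF230 at 30 min (0.01) and ZNF169 at 2 hrs (−0.07) had little dye difference beside laser ratios of 0.29 and 0.29. Over all replicates, however, the dye difference of ZNF230 was 0.22 (limma, adjusted p = 0.0127), with 0.38 at 1 hr and 0.33 at 2 hrs.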

How the data were processed

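RNA of laser-wounded and unwounded chick cochlear SE cultures was compared on 77 two-colour arrays at 4 recovery times. The deposited scanner output held an intensity (mean signal of a spot, not normalised) for each dye, with its local background. The authors' table of log2 ratios, deposited beside it, equals the raw log2 ratio of these signals within 5.77e-15, turned to laser over control, with column medians from −1.03 to 1.38, so it is neither centred nor background-corrected.

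From the intensities, background was corrected (normexp, offset 50). Within-array normalisation used 1 loess curve per array, in which spots of the 27 control names had no weight. Duplicate spots were averaged, ratios of arrays whose laser RNA was in Cy3 changed sign, arrays of an orientation were averaged and then both orientations, which gave 2 biological replicates for each of 4 time points (from 3 to 7 arrays an orientation). Genes whose mean reached 1000 units in some time point were tested (1504 of 1507). limma 3.58.1 in R 4.3.3, with statmod 1.5.0, fitted 1 mean for each time point, with p-values adjusted by Benjamini-Hochberg over all genes tested. The dye difference was fitted on the 16 orientation means. The labels number the samples but do not say that numbers were shared across time points. The p-values measure only the spread between these pooled samples. The number of arrays limits the precision. The steps were run on simulated data whose spread was chosen, not taken from these replicates. There 95.5% of 67 simulated 1.3-fold changes at 2 hrs passed after adjustment. Simulated 2-fold changes came back with a median log2 ratio of 1.14, larger than was put in. That run checks the steps and does not show how many such changes would be found in these data.

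The members and lists were chosen with earlier results of these data known. Named genes were up to 6 called genes a comparison with the same sign in both replicates, a fixed list of 24 genes, the 5 with the largest dye difference, and examples of a protein group. Those named outside this rule (ZNF41, ZNF282, ZFP93 and others met for their repeated signs, their signal or their level) were chosen after their values were seen. Alternatives covered background correction, normalisation, the signal filter, the table of log2 ratios, dye orientation, array averaging, blocks, thresholds and each replicate left out.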

Additional observations from a re-analysis of the deposited data

Results flagged for a closer look

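A difference between time points drew attention in 2 zinc finger genes. The laser over control ratio of ZNF75A was higher at 2 hrs and 3 hrs than at 30 min and 1 hr by 0.31 on the log2 scale (limma, p = 0.00238), with all 4 later replicates above all 4 earlier ones. That of ZNF93 was higher by 0.27 (limma, p = 0.00851), also with no overlap. Both genes were picked by this same contrast. Uncalled genes such as ZNF143 and ZNF148 had no overlap either, and the share over all genes was not counted. Neither passed after adjustment over all genes (adjusted p = 0.71 for ZNF75A and 0.723 for ZNF93). In the authors' table the differences were 0.0115 for ZNF75A and −0.0281 for ZNF93. That table is not centred, and the family median in it was 0.17, −0.062, −0.18 and −0.073 in order of recovery time. Its differences are therefore not relative to the other genes, as 0.31 and 0.27 are.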

How the results depend on the processing

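All ratios rest on 2 biological replicates a time point and on dye orientations that disagree, and probes at 30 min and 3 hrs were often below 1000 units. Of the 9 called results (7 at a time point and 2 for later minus earlier), 9 were kept with no signal filter, 9 with a mean over all arrays, 6 with median centring, 5 with the authors' table, 3 with scale normalisation between arrays, 2 with plain background subtraction and 0 without background correction. The methods' t-test over all arrays kept 4, print-tip loess 2, laser RNA in Cy3 alone 7 and in Cy5 alone 2. limma on all arrays kept 8 with the replicate as a block and 7 with the header day. With no array turned, which cancels the laser effect, 0 were kept. Each of the 9 was lost without some replicate, and the cause was not tested for any of these changes. The 5 calls kept with the authors' table were ZNF230 at 30 min and ZNF132, ZNF258, ZNF43 and ZNF84 at 2 hrs. That table is not centred, and its family median was 0.17 at 30 min and −0.18 at 2 hrs. Each of the 5 lay on the side of the median at its time, and the part of this offset was not tested. The named genes gave 165 ratios, of which only the 9 results above were called here. Of 3550 values of these ratios under the alternatives, 3357 stayed on the same side of the threshold, most of them uncalled in both fits. Of these 456 changed sign in ratios that passed the threshold neither here nor under the alternative. Another 81 passed it newly, 70 no longer passed it, and 42 reversed in ratios that passed it in at least one of the fits compared.

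The number of zinc finger genes called was 1 at 30 min, 0 at 1 hr, 6 at 2 hrs, 0 at 3 hrs and 2 for later minus earlier. Without the fold threshold it was 8, 2, 24, 4 and 4, and with an adjusted p under 0.05 it was 0 in each. Plain background subtraction gave 2, 6, 11, 12 and 5 (1.17%, 3.51%, 6.43%, 7.02% and 2.92% of 171, where 3.46%, 3.32%, 6.58%, 3.72% and 3.72% of all genes were called). No background correction gave 0 in each, where 1.53%, 0.133%, 0.798%, 0.931% and 0.399% of all genes were called. Scale normalisation gave 0 at 30 min, 2 at 2 hrs, 2 at 3 hrs and 1 for later minus earlier (1.6%, 1.86%, 2.33% and 1.13% of all genes). A mean signal of at least 1200 at every time point, which 76 of the genes met, gave 0 at 30 min and 3 at 2 hrs. Of all genes that met it, 4.39% and 5% were called. The authors' table gave 19 at 30 min, 24 at 2 hrs and 16 for later minus earlier (14.2%, 12.4% and 16.2% of all genes). Cy3-labelled laser RNA alone gave 22, 22, 52, 10 and 6, beside 15.2%, 22.4%, 31.2%, 13.4% and 6.85% of all genes. Cy5-labelled alone gave 15, 14, 25, 29 and 4, beside 15.4%, 9.51%, 19.5%, 22% and 5.25%. No array turned gave 10, 12, 34, 16 and 0, beside 13.2%, 17.4%, 24.5%, 17.6% and 2.99%. The methods' t-test over all arrays gave 2 at 30 min, 3 at 2 hrs and 1 for later minus earlier (2.53%, 2.33% and 1.53% of all genes). limma on all arrays with the biological replicate as a random block gave 3 at 30 min, 8 at 2 hrs, 1 at 3 hrs and 1 for later minus earlier. Of all genes 4.32%, 3.59%, 0.798% and 1.53% were called there. With the header day as a block it gave 2, 8, 1 and 1 (4.19%, 3.46%, 1.13% and 1.66%). The consensus correlations of these blocks were −0.0117 and −0.0187, so arrays within a block counted nearly as independent values. Print-tip loess, an alternative that was chosen after seeing the data, gave 0 at 30 min, 3 at 2 hrs and 0 for later minus earlier (1.46%, 2.73% and 0.997% of all genes). The rule that both replicates and both orientations share the sign, also chosen after seeing the data, left 2 at 2 hrs (1.73% of all genes). Leaving out each replicate in turn gave from 1 to 11 at 30 min, 0 to 6 at 1 hr, 6 to 32 at 2 hrs, 0 to 5 at 3 hrs and 1 to 7 for later minus earlier. A fit without 1 replicate leaves 1 sample at that time point. The share of all genes called also rose at a time point when either of its replicates was left out. These ranges are therefore no result about the family. Each time point fitted alone gives no value for later minus earlier.

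The replicate number was entered as a block in the same fit and gave 1, 0, 6, 0 and 2 called genes, with all 9 calls kept. Samples of the same number deviated together with correlations from −0.25 to 0.17 over 6 pairs of time points, 1 of them over 0.1, so the numbers were not taken as pairing the samples.

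The median log2 ratio of the family at 30 min (−0.018) was −0.02 with plain subtraction, −0.0061 without background correction, −0.0101 with median centring, −0.0119 with scale normalisation, −0.0102 at a signal of at least 1200, −0.0155 with print-tip loess, 0.17 in the authors' table, −0.11 in Cy3 alone, 0.0597 in Cy5 alone and 0.0703 with no array turned. At 1 hr (−0.026) it was −0.011 with plain subtraction, −4e-04 at a signal of at least 1200, −0.062 in the authors' table, −0.0651 in Cy3 alone, 0.0062 in Cy5 alone and 0.0273 with no array turned. At 2 hrs (−0.024) it was −0.18 in the authors' table, −0.13 in Cy3 alone, 0.0846 in Cy5 alone and 0.12 with no array turned. At 3 hrs (0.008) it was 0.0348 with plain subtraction, 0.025 with median centring, −0.073 in the authors' table, −0.0261 in Cy3 alone, 0.0567 in Cy5 alone and 0.0303 with no array turned. Leaving out each replicate in turn moved it from −0.0174 to −0.0153 at 30 min, −0.0392 to −0.0252 at 1 hr, −0.0818 to 0.0167 at 2 hrs and 0.0046 to 0.0238 at 3 hrs.

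Of the numbers detected, 22 at 30 min became 63 at a level of 800, 14 at 1200, 79 at 50% of arrays, 3 above the 95th percentile of the control oligos and 171 at a signal over local background of at least 2. At 1 hr 140 became 2 above that percentile and 90 over background, and at 2 hrs 133 became 6 above the percentile. At 3 hrs 68 became 110 at 800, 38 at 1200, 120 at 50% of arrays and 3 above the percentile. Without single replicates they ranged from 19 to 28, 112 to 159, 116 to 136 and 36 to 94. The 39 genes with a dye difference became 89 with median centring and 79 with all arrays fitted, and from 27 to 41 without single replicates. The share over all genes is given above for the 95th percentile of the control oligos. For the other alternatives it was not counted, so those changes are no result about the family.

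Only ratios that passed the threshold in at least one of the fits compared are listed as reversed. On arrays with the laser RNA in Cy5 alone, they were those of ZNF230 at 1 hr (0.30), ZNF258 (0.027), ZNF93 (−0.0489) and ZNF84 (0.17) at 2 hrs, ZNF76 at 30 min, 1 hr and 2 hrs (−0.97, −0.54 and −0.54), ZNF160 at 1 hr and 2 hrs (−0.67 and −0.48), ZFP95 at 3 hrs (−0.44), ZNF6 at 30 min and 2 hrs (0.35 and 0.38) and ZNF200 at 1 hr and 2 hrs (−0.43 and −0.47). In Cy3 alone they were ZNF76 at 3 hrs (0.99), ZNF160 at 30 min and 3 hrs (0.36 and 0.42), ZFP95 at 1 hr (0.56) and ZNF6 at 3 hrs (−0.43). With no array turned they were ZNF230 at 1 hr and 2 hrs (0.38 and 0.33), ZNF132 (0.25), ZNF169 (−0.0661), ZNF258 (0.32), ZNF84 (0.48) and ZNF75A (−0.49) at 2 hrs, ZNF93 at 2 hrs (−0.31), the later minus earlier differences of ZNF93 (−0.11) and ZNF75A (−0.14), ZNF76 at 30 min, 1 hr and 2 hrs (−1.03, −0.72 and −0.66), ZNF160 at 1 hr and 2 hrs (−0.70 and −0.54), ZFP95 at 3 hrs (−0.47), ZNF6 at 30 min and 2 hrs (0.44 and 0.42) and ZNF200 at 1 hr and 2 hrs (−0.43 and −0.64). In the authors' table ZNF93 reversed at 2 hrs (−0.0112) and for later minus earlier (−0.0281), while ZNF75A for later minus earlier (0.0115) and ZNF169 at 2 hrs (0.0334) kept their sign and lost the call. ZNF268 at 2 hrs gave from −0.321 to 0.4057 with 1 replicate of that time left out.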

Other observations

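Of the 48 zinc finger genes whose name matched a chicken entry, 7 (14.6%) were detected at all 4 time points and 0 were called at any time point by limma. Of the 123 without a match, 14 (11.4%) were detected at all 4 and 7 were called. Among all 1507 genes 449 were detected at all 4, and 8.31% of the genes tested were called at a time point. The median level relative to the array median was −0.33 in the genes with a match and −0.39 in those without (log2). The probe of ZNF10, the gene in which the KRAB domain was first studied as a repressor, stood at 1.44 in replicate 1 of 1 hr and between −0.54 and 0.10 in the other 7 replicates (log2 over the array median).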
